A study of Mus musculus with 10 samples.

Results

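Complex I of the mitochondrial respiratory chain was followed in the abdominal aorta through the genes that carry its name. All genes whose single annotated symbol starts with Nduf were taken, which gave 39 of the 17991 genes measured. Of these, 31 are named as subunits (Ndufa, Ndufb, Ndufc, Ndufs and Ndufv), 7 are assembly factors (Ndufaf) and 1, Ndufs5-ps, is annotated as a pseudogene. The choice rested on names, with the probe of highest mean for each gene, but it was made with earlier results of these data known. The tissue came from male ApoE-/- mice, 14 weeks old, which lack apolipoprotein E, so that both groups carried the knockout. Abdominal aorta was pooled from pairs of mice (2 a pool) in 5 pools, numbered 1, 6, 8, 11 and 12, and cut at the level of the kidneys. The segment below them (infrarenal) and the segment above them (suprarenal) of each pool were read on 1 array each, so that 5 infrarenal arrays have 5 suprarenal partners from the same animals. Wild-type aorta was not analysed here, and the labels used here give no diet or strain background.

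Complex I takes electrons from NADH, passes them along a chain of iron-sulfur clusters to ubiquinone, and pumps protons across the inner mitochondrial membrane. It has a matrix arm, made of an NADH-binding N module and a ubiquinone-binding Q module, and a membrane arm with a proximal and a distal part. Core subunits carry the chemistry, accessory subunits surround and stabilise them, and assembly factors help to build the complex without remaining in it. The membrane core is encoded by the mitochondrial genome and was not analysed here. Brown adipocytes, cardiac muscle and slow skeletal muscle are known for dense mitochondria, while arterial smooth muscle has fewer, and the fat around the mouse aorta is partly of the brown type.

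The values are scaled intensities on a log2 scale, and lists of 5 values follow the order of pools 1, 6, 8, 11 and 12. A difference is infrarenal minus suprarenal in the paired fit of 5 pools, so that a negative number means a lower value below the kidneys. The ± of a single gene is the standard error of that fit, moderated by the variance of all probes. It is not the spread between pools, which is given as an SD where stated. The smooth muscle genes Myh11, Acta2, Tagln and Cnn1 read between 7.74 and 8.76 on all arrays, and the endothelial gene Pecam1 between 3.92 and 4.66. Cdh5, the other defining endothelial gene, was dim, between -1.06 and -0.05. The Apoe probe read between -5.09 and -2.57, near the lower limit of -5.17 set for all values, and the sources used here do not say which part of the gene it covers. Adipose and skeletal muscle genes were also present and varied between arrays, as described beside the results they touch. The 38 Nduf genes other than Ndufaf8 lay above this limit by a wide margin on every array, and the number of arrays limits the precision.

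NRF1, GABPA (an ETS factor) and YY1 are transcription factors known for nuclear genes of respiration. Promoters are shown for 5 of the 11 members of smallest p, those that hold an NRF1 or ETS motif before the start site, and for Ndufb4, which holds the NRF1 motif most often. RefSeq promoter windows (GRCm38.p6, 250 bases before to 50 after the start of transcription) were matched by gene identifier for 33 of the 39 genes. The 200 bases before the start site follow, with matches to the NRF1 motif or the ETS motif CCGGAAG, on either strand, in capitals. The NRF1 motif leaves 1 base free, so that its matched letters differ between the genes (GCGCATGCGC in Ndufaf4, GCGCAGGCGC in Ndufa5).
Ndufb7, chr8:83566558-83566757, plus strand: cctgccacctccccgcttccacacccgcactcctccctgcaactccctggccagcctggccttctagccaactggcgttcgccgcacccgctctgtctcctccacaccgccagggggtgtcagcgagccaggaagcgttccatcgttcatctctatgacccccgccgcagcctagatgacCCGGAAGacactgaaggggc
Ndufaf4, chr4:24897883-24898082, plus strand: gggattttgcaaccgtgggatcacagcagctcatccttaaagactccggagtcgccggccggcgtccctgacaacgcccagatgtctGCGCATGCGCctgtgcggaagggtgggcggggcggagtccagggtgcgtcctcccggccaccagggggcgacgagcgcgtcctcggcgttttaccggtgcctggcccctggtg
Ndufs3, chr2:90904722-90904921, minus strand: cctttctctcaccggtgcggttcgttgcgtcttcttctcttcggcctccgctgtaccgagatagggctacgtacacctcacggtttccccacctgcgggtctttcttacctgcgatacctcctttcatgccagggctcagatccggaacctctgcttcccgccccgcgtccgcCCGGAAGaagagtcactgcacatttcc
Ndufa5, chr6:24527691-24527890, minus strand: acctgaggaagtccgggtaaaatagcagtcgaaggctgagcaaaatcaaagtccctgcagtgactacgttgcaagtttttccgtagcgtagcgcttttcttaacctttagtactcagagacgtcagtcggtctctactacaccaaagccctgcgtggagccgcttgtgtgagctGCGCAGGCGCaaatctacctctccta
Ndufs6, chr13:73328483-73328682, minus strand: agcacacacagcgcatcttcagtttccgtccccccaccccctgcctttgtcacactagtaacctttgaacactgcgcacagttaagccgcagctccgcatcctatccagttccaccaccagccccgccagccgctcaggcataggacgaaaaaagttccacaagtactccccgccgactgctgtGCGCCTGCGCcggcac
Ndufb4, chr16:37654369-37654568, minus strand: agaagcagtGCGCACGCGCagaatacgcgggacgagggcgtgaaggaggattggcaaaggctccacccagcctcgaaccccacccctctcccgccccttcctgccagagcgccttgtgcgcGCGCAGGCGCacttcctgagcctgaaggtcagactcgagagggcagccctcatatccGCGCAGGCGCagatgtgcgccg

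In these stretches Ndufb7 and Ndufs3 held the ETS motif 20 and 27 bases before the start site, and Ndufa5, Ndufs6 and Ndufaf4 the NRF1 motif 26, 16 and 113 bases before it. Ndufa5 has a further annotated start site, and the same motif lies 190 bases before that one. The window with the nearer match is the one shown. Ndufb4 held the NRF1 motif 3 times, starting 191, 79 and 22 bases before the start site. Over the whole windows, the NRF1 motif was found in 8 of 33 members (24.2%), against 1160 of 14270 genes with a window (8.13%). The 8 were Ndufa5, Ndufa6, Ndufa8, Ndufa11, Ndufb4, Ndufs6, Ndufaf4 and Ndufaf5. The YY1 motif was found in 5 of 33 (15.2%), against 265 of 14270 (1.86%). In Ndufa9, Ndufs4, Ndufs6, Ndufs7 and Ndufaf8 its matched letters were AAGATGGCGGC, which began 30, 36, 34, 25 and 11 bases after the start site. The ETS motif was found in 5 of 33 members (15.2%) and 14.1% of all genes, the SP1 motif GGGCGG in 51.5% and 55.0%, and CCAAT in 36.4% and 41.8%. The ERR motif TNAAGGTCA was found in 1 of 33 members and 1.20% of all genes. Matches of different motifs overlapped once, in Ndufs3 (ETS and SP1). The regional differences of the 8 genes with the NRF1 motif lay between -0.56 and -0.19, with a median of -0.31, and those of the 25 without it between -0.53 and -0.083, with a median of -0.30. For the other motifs, the median with and without was -0.36 and -0.30 for YY1, -0.27 and -0.31 for ETS, -0.28 and -0.36 for SP1 and -0.30 and -0.30 for CCAAT. A match is a description of the sequence and not a measured binding site.

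All 39 Nduf genes had a lower mean in infrarenal than in suprarenal aorta, where 60.4% of all genes did. No member passed the test, nor did any of the 36061 probes (0%): the adjusted p of the members lay between 0.639 and 0.968 (limma, Benjamini-Hochberg over all probes). At an unadjusted p under 0.05 there were 15 members, all lower in infrarenal aorta, against 5.89% of all genes in that direction and 7.56% of all probes in either direction. The median difference of the members was -0.31, beside -0.049 over all genes. The sign was negative in all 5 pools for 11 members, against 6.29% of all genes, in 4 pools for 17 and in 3 pools for 11. The infrarenal arrays lay below all suprarenal arrays for 1 member, Ndufa4l2, against 0.886% of all genes, and overlapped them for the other 38. The members share their arrays and pools, so that their count is no measure of replication. The arrays cannot tell fewer cells of a type from less RNA per cell. Among alternatives, 9 members had an unadjusted p under 0.05 after quantile normalization, 7 without pool 6, 7 without pool 8, 6 without pool 11, 31 without pool 12 and 7 with no variance trend. Over all probes, in either direction, the counts in the same order were 2062, 1475, 1801, 2191, 3931 and 2323. The main fit had 2726, so that the count over all probes also rose without pool 12.

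**Figure D1:**
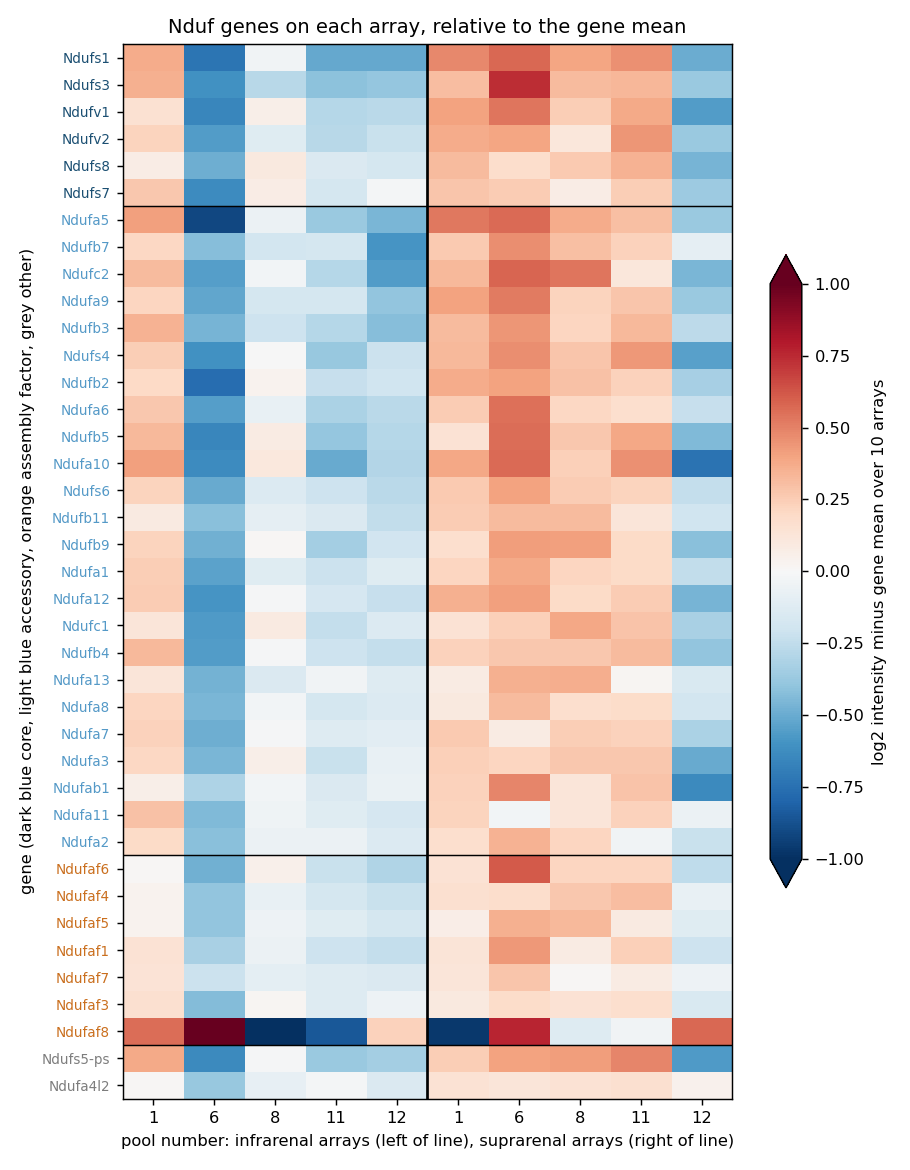
Log2 intensity of each of the 39 Nduf genes (rows) on each of the 10 arrays (columns, by region and pool number), minus the gene's mean over the arrays; the colour scale ends at 1 log2 unit on either side. Infrarenal array 6 and suprarenal array 12 are low for nearly all genes, and infrarenal array 1 is as high as most suprarenal arrays. Ndufaf8 follows another order. A few other genes depart on single arrays, such as Ndufb7 and Ndufc2, whose lowest infrarenal array is 12.

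Core subunits of the matrix arm had a mean difference of -0.39 ± 0.48 (SD, n = 5 pools) over 6 genes, all lower in infrarenal aorta, 3 of them with an unadjusted p under 0.05. Ndufs1, the largest subunit of the N module and a carrier of iron-sulfur clusters, read 4.47, 3.37, 4.07, 3.58 and 3.59 in infrarenal aorta. In suprarenal aorta it read 4.58, 4.68, 4.49, 4.56 and 3.61. Suprarenal array 12 was about as low as infrarenal arrays 11 and 12, and the groups overlapped through it alone, since all infrarenal arrays lay below the other 4 suprarenal arrays. Its difference of -0.57 ± 0.19 was the most negative of the members, with a 95% interval of -1.0 to -0.13, and it was lower in 5 of 5 pools. Ndufv1, which binds NADH and flavin, read 6.15, 5.34, 6.05, 5.71 and 5.72 in infrarenal and 6.39, 6.53, 6.24, 6.37 and 5.43 in suprarenal aorta. Here infrarenal array 12 was above its suprarenal partner, the other 4 pools were lower, and the difference was -0.40 ± 0.19. Ndufv2, an iron-sulfur subunit beside Ndufv1, read 7.59, 6.80, 7.24, 7.09 and 7.14 in infrarenal and 7.73, 7.75, 7.47, 7.80 and 6.99 in suprarenal aorta, with a difference of -0.38 ± 0.16. Here infrarenal array 1 lay above suprarenal array 8, and suprarenal array 12 below 4 of the infrarenal arrays.

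The core subunits of the Q module form the channel to ubiquinone. Ndufs3 read 4.56, 3.60, 3.93, 3.80 and 3.82 in infrarenal and 4.51, 4.94, 4.52, 4.54 and 3.84 in suprarenal aorta. Its difference was -0.53 ± 0.19, most of it from pools 6, 8 and 11, while pools 1 and 12 were near 0 (0.049 and -0.021). A second, dimmer Ndufs3 probe differed by -0.14 ± 0.12 (SE), lower in 4 of 5 pools. Ndufs7 and Ndufs8 carry the last iron-sulfur clusters of the chain and had the smallest differences of the core. Ndufs7 read 6.69, 5.79, 6.49, 6.25 and 6.40 in infrarenal and 6.69, 6.67, 6.50, 6.67 and 6.06 in suprarenal aorta, a difference of -0.19 ± 0.16. For Ndufs8 the infrarenal values were 6.35, 5.79, 6.38, 6.13 and 6.10 and the suprarenal values 6.60, 6.46, 6.54, 6.63 and 5.81, a difference of -0.26 ± 0.13. In both, suprarenal array 12 was the lowest of its region and below infrarenal array 12.

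Accessory subunits of the matrix arm were lower in infrarenal aorta for all 8 genes measured, 6 of the N and 2 of the Q module. Ndufa5, which sits on the Q module, read 4.46, 3.15, 4.0, 3.68 and 3.59 in infrarenal and 4.58, 4.62, 4.43, 4.35 and 3.68 in suprarenal aorta. It had the widest span over arrays among the subunits, 1.47 log2 units, and a difference of -0.56 ± 0.19, lower in 5 of 5 pools. Ndufa9, which joins the Q module to the membrane arm and resembles short-chain dehydrogenases, read 6.25, 5.52, 5.86, 5.86 and 5.64 in infrarenal and 6.43, 6.56, 6.26, 6.31 and 5.67 in suprarenal aorta. Its pool differences were -0.19, -1.04, -0.40, -0.45 and -0.025, so that pool 6 had the largest and pool 12 almost none, and its difference in the fit was -0.42 ± 0.14. The N module subunit Ndufs6, which binds zinc, read 7.12, 6.39, 6.76, 6.68 and 6.63 in infrarenal and 7.15, 7.29, 7.15, 7.12 and 6.66 in suprarenal aorta, a difference of -0.36 ± 0.13 with the same sign in 5 of 5 pools. Ndufa2, of the same module, read 7.51, 6.91, 7.27, 7.26 and 7.18 in infrarenal and 7.49, 7.67, 7.54, 7.29 and 7.10 in suprarenal aorta, a difference of -0.19 ± 0.13. This was among the 4 smallest of all members. Ndufs4, whose loss causes a Leigh-like disease in mice, differed by -0.38 ± 0.19. The remaining N module genes Ndufa6, Ndufa7 and Ndufa12 differed by -0.38, -0.20 and -0.30. A second, much dimmer Ndufa12 probe differed by 0.023 ± 0.13 (SE).

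**Figure D2:**
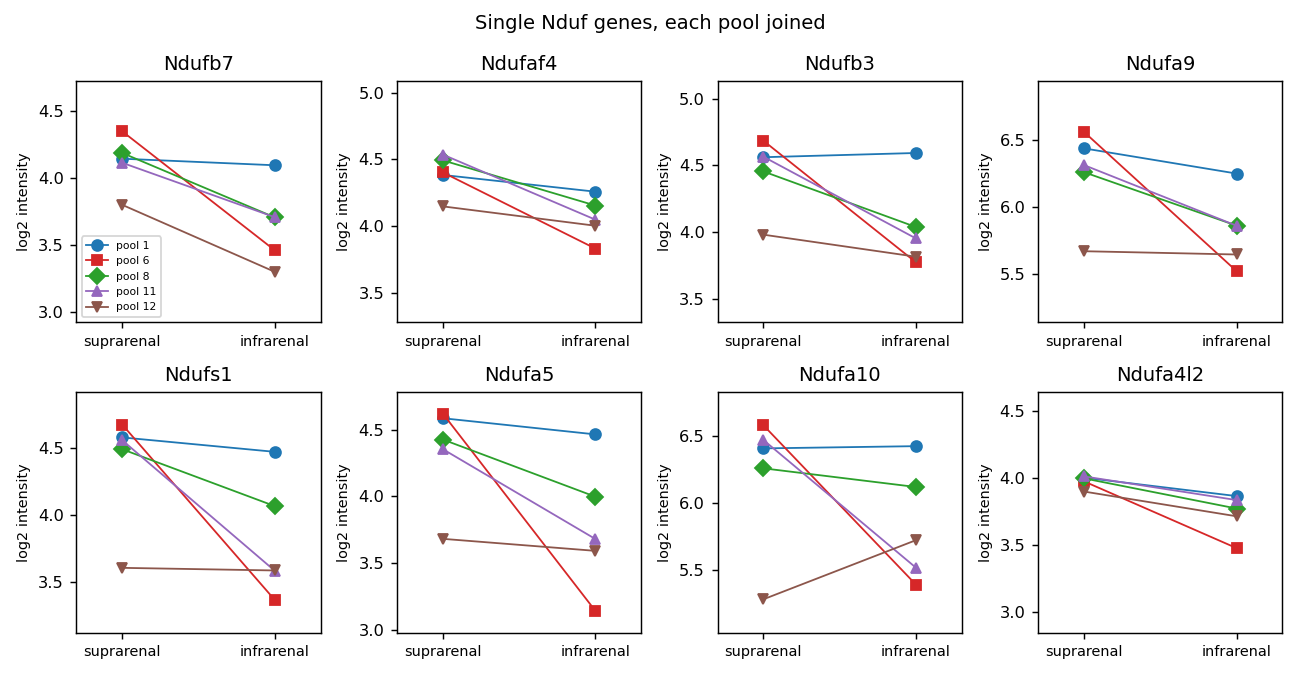
Log2 intensity of 8 Nduf genes in suprarenal and infrarenal aorta (horizontal axis), with 1 line for each pool of 2 mice; all panels span 1.8 log2 units. Pool 6 has the steepest downward line in each panel, and the Ndufa4l2 lines lie closest together. Pool 12 starts lowest in suprarenal aorta for every gene shown, by little for Ndufa4l2 (3.90, the other pools from 3.98).

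Membrane arm subunits were lower in infrarenal aorta for 8 of 8 genes of the proximal and 8 of 8 of the distal part. Among the distal genes, Ndufb7 had the smallest p of all members. It read 4.10, 3.46, 3.71, 3.71 and 3.30 in infrarenal and 4.15, 4.35, 4.19, 4.11 and 3.80 in suprarenal aorta. Every pool was lower, pool 1 by little, and pool 12 took part with -0.50, unlike in most members. The difference was -0.47 ± 0.12, with a 95% interval of -0.73 to -0.20 and an adjusted p of 0.639 by limma. Ndufb3, a small membrane subunit, read 4.59, 3.78, 4.04, 3.95 and 3.82 in infrarenal and 4.56, 4.68, 4.46, 4.57 and 3.98 in suprarenal aorta, a difference of -0.41 ± 0.13. Ndufb11 read 6.98, 6.47, 6.80, 6.74 and 6.64 in infrarenal and 7.14, 7.20, 7.20, 7.01 and 6.68 in suprarenal aorta, a difference of -0.32 ± 0.11 and lower in 5 of 5 pools. In these 3 genes infrarenal array 1 lay within the suprarenal range and infrarenal array 6 below it. Ndufb5 had one of the most variable differences, with 6.29, 5.32, 6.06, 5.59 and 5.69 in infrarenal and 6.12, 6.53, 6.24, 6.36 and 5.53 in suprarenal aorta. Pools 1 and 12 were higher and the other 3 lower, so that its difference of -0.37 ± 0.20 was within the spread between pools (SD 0.61). Ndufb2, Ndufb4 and Ndufb9 differed by -0.38, -0.28 and -0.31. Ndufab1, the mitochondrial acyl carrier protein, which also serves fatty acid synthesis in the organelle, was dim and differed by -0.19 ± 0.18. Its second probe, dimmer still, differed by -0.63 ± 0.24 (SE), lower in 4 of 5 pools and with an adjusted p of 0.639 by limma.

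In the proximal part, Ndufc2 had the most negative difference. It read 5.51, 4.64, 5.17, 4.91 and 4.64 in infrarenal and 5.52, 5.77, 5.73, 5.30 and 4.73 in suprarenal aorta, a difference of -0.44 ± 0.16, with all pools lower and pool 1 at -0.012 only. Ndufa10, a subunit that resembles nucleoside kinases, read 6.42, 5.39, 6.12, 5.52 and 5.72 in infrarenal and 6.41, 6.58, 6.26, 6.47 and 5.28 in suprarenal aorta. Its pools ran from -1.19 to 0.44, the widest among the subunits, and the difference was -0.37 ± 0.23. Ndufa11, a membrane subunit near the contact with complex III in supercomplexes, read 6.62, 5.88, 6.28, 6.20 and 6.15 in infrarenal and 6.54, 6.29, 6.44, 6.55 and 6.26 in suprarenal aorta, a difference of -0.19 ± 0.09. Its suprarenal array 6 lay among the lower of its region, where that array was the highest for 26 members. Ndufa1, Ndufa3, Ndufa8, Ndufa13 and Ndufc1 had differences between -0.30 and -0.20.

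**Figure D3:**
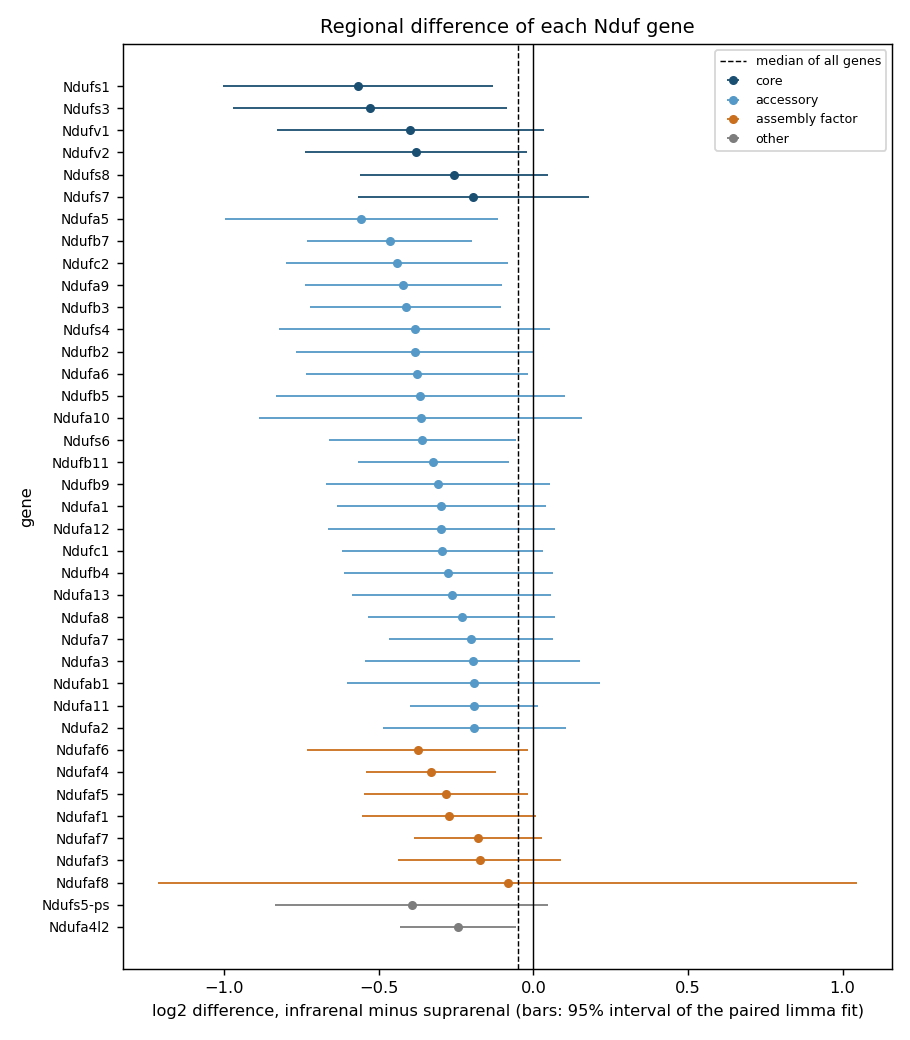
Log2 difference, infrarenal minus suprarenal, of each of the 39 Nduf genes (points) with the 95% interval of the paired limma fit (bars), by role; the dashed line is the median of all genes, -0.049. All points lie below 0, between -0.57 and -0.083, and none passed the test after adjustment.

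Assembly factors were lower in infrarenal aorta for 7 of 7 genes, 3 of them with an unadjusted p under 0.05 and in all pools. Ndufaf4, which with Ndufaf3 builds the Q module, had the second smallest p among the members. It read 4.26, 3.83, 4.16, 4.05 and 4.01 in infrarenal and 4.38, 4.40, 4.49, 4.54 and 4.15 in suprarenal aorta, with 5 of 5 pools lower and a difference of -0.33 ± 0.091. Ndufaf3 itself read 4.69, 4.09, 4.55, 4.40 and 4.48 in infrarenal and 4.63, 4.71, 4.67, 4.69 and 4.38 in suprarenal aorta, a difference of -0.17 ± 0.11, with pools 1 and 12 slightly higher. Ndufaf5, which hydroxylates an arginine of Ndufs7, read 4.41, 3.98, 4.32, 4.25 and 4.19 in infrarenal and 4.44, 4.73, 4.69, 4.46 and 4.25 in suprarenal aorta, a difference of -0.28 ± 0.11. A second, much dimmer Ndufaf5 probe differed by 0.64 ± 0.42 (SE), and with both probes averaged the gene differed by 0.18. Ndufaf6 read 2.54, 2.04, 2.57, 2.30 and 2.23 in infrarenal and 2.67, 3.14, 2.73, 2.74 and 2.27 in suprarenal aorta, a difference of -0.37 ± 0.15 and lower in 5 of 5 pools. Ndufaf1, of the complex that assembles the membrane arm, read 4.96, 4.49, 4.75, 4.61 and 4.58 in infrarenal and 4.95, 5.25, 4.90, 5.05 and 4.60 in suprarenal aorta, a difference of -0.27 ± 0.12. Ndufaf7, a methyltransferase, read 4.76, 4.41, 4.53, 4.5 and 4.48 in infrarenal and 4.75, 4.90, 4.64, 4.71 and 4.58 in suprarenal aorta, with the narrowest span of all members, 0.49. Its difference was -0.18 ± 0.089, and that of a dimmer second probe -0.22 ± 0.12 (SE). Ndufaf8, a partner of Ndufaf5, was close to the lower limit, with -2.75, -2.07, -4.70, -4.16 and -3.08 in infrarenal and -4.27, -2.55, -3.44, -3.35 and -2.74 in suprarenal aorta. Its difference of -0.083 ± 0.49 was smaller than its error, and its highest infrarenal array was 6, the lowest in most members. Its difference turned to 0.21 without pool 8, 0.098 without pool 11 and 0.013 with an offset in place of the lower limit.

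A pair of members are neither subunits of complex I nor factors of its assembly. Ndufa4l2 is not counted as a complex I subunit: it resembles Ndufa4, now assigned to complex IV, and is known as a gene induced by low oxygen. It read 3.87, 3.48, 3.77, 3.84 and 3.72 in infrarenal and 4.0, 3.98, 4.0, 4.01 and 3.90 in suprarenal aorta. Every infrarenal array was below every suprarenal one, with a narrow suprarenal spread (SD 0.046) and a difference of -0.24 ± 0.081 (limma adjusted p = 0.639). Of 9 other genes of the response to low oxygen, 6 were lower in infrarenal aorta, with a median of -0.11 and none with an unadjusted p under 0.05 (limma). Among them Epas1, Pdk1 and Vegfa differed by -0.35 ± 0.16, -0.30 ± 0.15 and -0.59 ± 0.34. Ndufs5-ps is an annotated pseudogene whose probe may also read Ndufs5, which it resembles, so that its values are uncertain. It differed by -0.39 ± 0.19, with suprarenal array 12 at 4.81 and the other suprarenal arrays between 5.62 and 5.86.

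Subunits and assembly factors were then set side by side by pool. The 31 genes named as subunits, with Ndufa4l2 among them, had pool differences of -0.043, -0.93, -0.30, -0.50 and 0.10. Their mean was -0.33 ± 0.41 (SD, n = 5 pools), and that of the 30 without Ndufa4l2 -0.34 ± 0.42. The 7 assembly factors had 0.19, -0.54, -0.36, -0.41 and -0.087, with a mean of -0.24 ± 0.29 (SD, n = 5 pools). Without Ndufaf8, the other 6 had -0.032, -0.71, -0.21, -0.35 and -0.044 and a mean of -0.27 ± 0.28. Subunits minus assembly factors gave -0.23, -0.39, 0.059, -0.083 and 0.19, a mean of -0.092 ± 0.23 (SD, n = 5 pools), which is smaller than the spread between pools. Without Ndufaf8 it gave -0.011, -0.22, -0.092, -0.15 and 0.14, a mean of -0.065 ± 0.14, also within the spread. The span over the 10 arrays had a median of 0.95 log2 units over the subunits and 0.73 over the 6 assembly factors. By place in the complex, the mean differences were -0.35 for the N module, -0.39 for the Q module, -0.29 for the proximal and -0.34 for the distal part, with SDs over pools between 0.39 and 0.46.

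**Figure D4:**
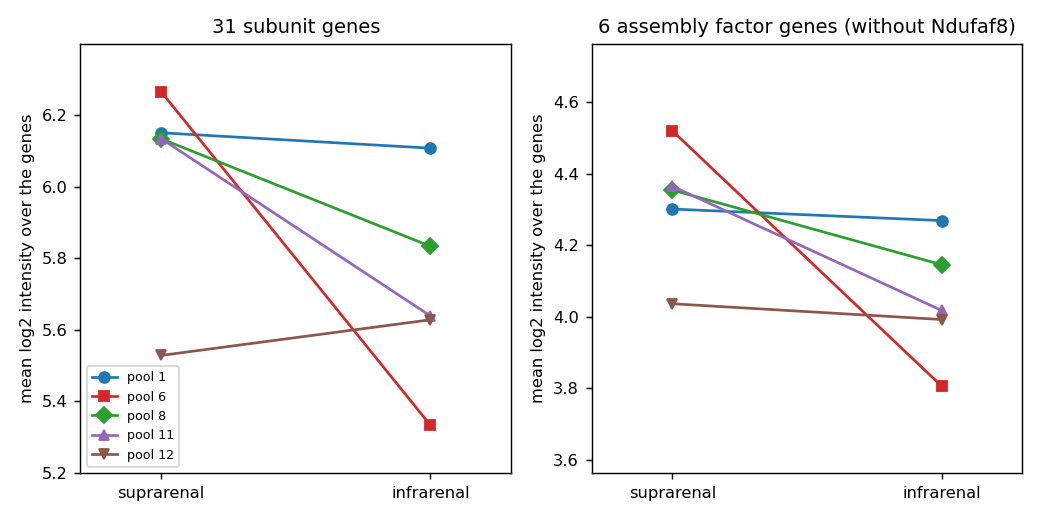
Mean log2 intensity over the 31 genes named as subunits, with Ndufa4l2 among them (left), and over 6 assembly factor genes without Ndufaf8 (right). Values are shown for suprarenal and infrarenal aorta, with 1 line for each pool of 2 mice. Both axes span 1.2 log2 units. The steepest line is pool 6 in both panels, and pool 12 starts lowest in suprarenal aorta.

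Nearly all members shared their lowest array in each region and their highest infrarenal array, but not their highest suprarenal array. The subunit mean read 6.11, 5.33, 5.83, 5.64 and 5.63 on the infrarenal arrays and 6.15, 6.27, 6.13, 6.13 and 5.53 on the suprarenal arrays. Among the infrarenal arrays, array 6 was the lowest for 36 of 39 members, against 26.3% of all genes, and array 1 the highest for 36, against 31.3%. Among the suprarenal arrays, array 12 was the lowest for 38 of 39 members, against 22.3% of all genes. The highest suprarenal array was 6 for 26 members, 11 for 7, 8 for 4 and 1 for 2. Pool 6 had the most negative difference for 38 members, against 23% of all genes. By pool, 22 members were lower in pool 1, 38 in pool 6, 39 in pool 8, 39 in pool 11 and 18 in pool 12. The share of all genes lower in each pool was not counted. Their mean differences were 0.038, 0.0093, -0.10, -0.031 and -0.018, most negative in pool 8, so that these counts are not comparable across pools. Without pool 6 the mean of the subunits was -0.19, and without pool 12 it was -0.44. The upper quartile of intensity over all probes was lower on every infrarenal array than on every suprarenal array. It ran from 4.85, on array 6, to 5.14 on the infrarenal and from 5.25 to 5.42 on the suprarenal arrays. Suprarenal array 12 had 5.36. After quantile normalization, which gives all arrays the same distribution of values, the mean of the subunits was -0.20, against -0.33 in the main fit. The median difference of all genes was 0.0015 there, against -0.049. All 39 members were lower in infrarenal aorta, 9 of them with an unadjusted p under 0.05 (limma), against 15 in the main fit. Over all probes, in either direction, 2062 had such a p after quantile normalization, against 2726 in the main fit. The part of the intensity of the arrays in the result was not tested.

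Genes of the other respiratory complexes, none of which passed the test, had similar pool differences. The list means were -0.42 for complex II, -0.40 for complex III, -0.33 for complex IV and -0.28 for complex V, the ATP synthase. All 4 genes of complex II were lower in infrarenal aorta, as were 8 of 9 of complex III, 11 of 11 of complex IV and 12 of 13 of complex V. By pool, complex IV had -0.076, -0.94, -0.27, -0.53 and 0.18 and complex V -0.021, -0.76, -0.26, -0.35 and -0.0068, so that pool 6 was the most negative in both, as for the Nduf genes. Sdhc, of complex II, differed by -0.42 ± 0.16. In complex III, Uqcrc1, a core protein, differed by -0.71 ± 0.26 and Uqcrfs1, the Rieske iron-sulfur protein, by -0.56 ± 0.24. Cox5a, of complex IV, differed by -0.69 ± 0.25 and Atp5b, the catalytic beta subunit of the ATP synthase, by -0.55 ± 0.18. Of 10 complex I assembly factors without an Nduf name, 10 were lower in infrarenal aorta, with a median of -0.33. Aifm1 and Chchd4, which act together in protein import into the intermembrane space, differed by -0.51 ± 0.15 and -0.45 ± 0.12, and Timmdc1 by -0.54 ± 0.19.

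Of 15 regulators of mitochondrial biogenesis, 14 were lower in infrarenal aorta, with a median of -0.17. Gabpa, which encodes the DNA-binding subunit of the ETS factor named above, differed by -0.36 ± 0.12 and Tfb2m, a mitochondrial transcription factor, by -0.27 ± 0.10. Esrra, which encodes the receptor ERR alpha, differed by -0.41 ± 0.26 and Nrf1 by -0.063 ± 0.14. Ppargc1a, a coactivator of these factors, differed by 0.14 ± 0.32. Glycolysis genes, outside the mitochondria, were lower in 10 of 11 cases, with a median of -0.34, and Pkm, Pfkl and Pgk1 differed by -0.42 ± 0.11, -0.85 ± 0.30 and -0.39 ± 0.14. None of these genes passed (adjusted p of 0.639 or above by limma).

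**Figure D5:**
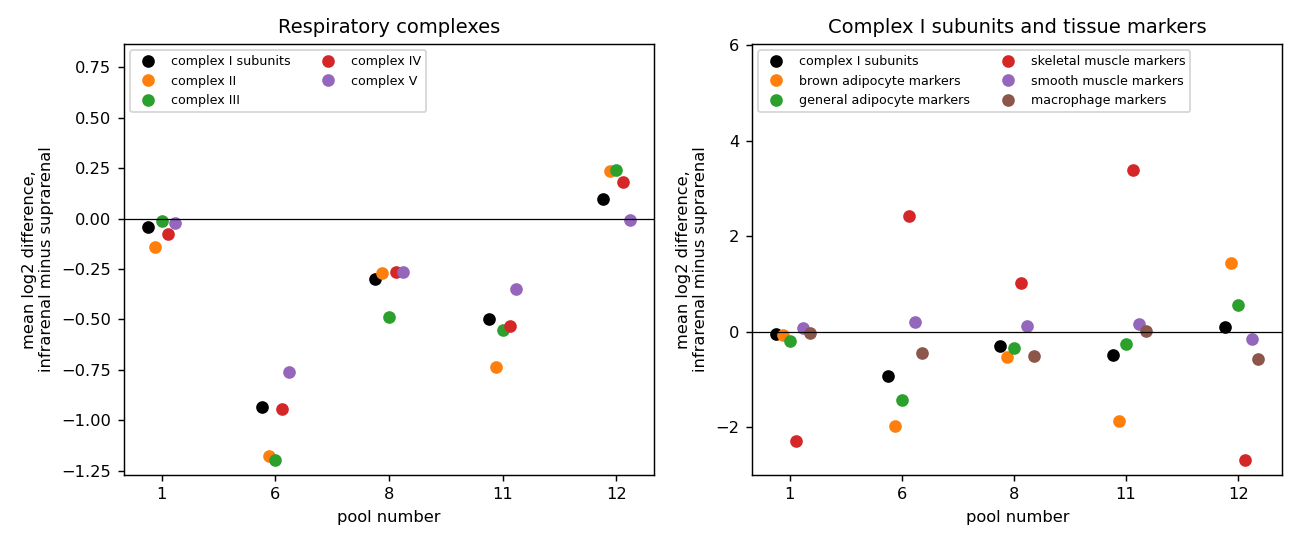
Mean log2 difference, infrarenal minus suprarenal, in each pool (horizontal axis) for the respiratory complexes (left) and for complex I subunits beside tissue marker lists (right). The complex I subunits are the 31 genes named so, with Ndufa4l2 among them. Each point is the mean over a gene list in 1 pool, and the vertical scales differ. The 5 complexes keep the same order of pools, most negative in pool 6, and in the right panel brown adipocyte markers are lowest in pool 6 and highest in pool 12, while skeletal muscle markers are highest in pool 11.

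Brown and general adipocyte markers and glycolysis genes had their lowest mean on infrarenal array 6 and suprarenal array 12, as the subunits had; for glycolysis these were 3.88 and 4.10. Of 13 brown adipocyte markers, 11 were lower in infrarenal aorta, with a mean level between 2.48 and 4.54 on the infrarenal and between 2.20 and 4.80 on the suprarenal arrays. None of the defining markers Ucp1, Cidea, Elovl3, Cox7a1 and Cox8b was at the lower limit on any array. The list holds Cox7a1 and Cox8b, which are themselves subunits of complex IV, and shares Ppargc1a with the regulators. Ucp1, the uncoupling protein of brown fat, read 8.16, 5.64, 7.25, 6.14 and 7.02 in infrarenal and 8.25, 8.22, 7.79, 8.43 and 4.37 in suprarenal aorta. As for the subunit mean, infrarenal array 6 was the lowest and array 1 the highest of its region, and suprarenal array 12 was the lowest. The pool differences of this list were -0.065, -1.98, -0.53, -1.86 and 1.44. General adipocyte markers were lower in 12 of 12 cases, with pool differences of -0.20, -1.43, -0.33, -0.26 and 0.56 and a mean level between 3.92 and 4.59 on the infrarenal and between 3.90 and 5.35 on the suprarenal arrays. The part of these cells in the Nduf differences was not tested.

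Skeletal muscle markers took another order. Their mean level lay between 1.99 and 5.21 on the infrarenal and between 1.01 and 5.29 on the suprarenal arrays, and 1 of 11 was lower in infrarenal aorta. The pool differences of this list had both signs, -2.29, 2.42, 1.03, 3.38 and -2.69, with a mean of 0.37 ± 2.75 (SD, n = 5 pools). Of the defining markers Acta1, Ckm, Mylpf and Tnnt3, none was at the lower limit on any array. Suprarenal array 12, the lowest of its region for the Nduf genes, was the highest for these markers, at 5.29. Slow and cardiac muscle markers were lower in 10 of 10 cases, with pool differences of 0.82, -0.60, -2.22, -0.077 and -2.11, and were also highest on suprarenal array 12, at 1.77. Smooth muscle markers were lower in 3 of 8 cases, with a mean difference of 0.084 ± 0.14 (SD, n = 5 pools) and a level between 6.70 and 7.0 over all arrays. Macrophage markers were lower in 8 of 8 cases, with pool differences of -0.032, -0.45, -0.52, 0.0082 and -0.58, of which pool 12 was the most negative. Endothelial markers were lower in 3 of 7 cases, sympathetic and chromaffin markers in 6 of 7 and kidney markers in 0 of 6, with mean differences of -0.067, -0.21 and 0.25. The part of these tissues in the Nduf differences was not tested.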

How the data were processed

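The authors' deposited table holds 1 intensity per probe and array, linear and scaled to an array median between 1.001 and 1.003, as the values show. Per the labels' protocols, 0.34 to 0.54 µg of RNA per sample was amplified with a biotin label read through Cy5-streptavidin. Scanner, background correction and scaling: not given in the sources used here. Intensities below 0.0278, percentile 1 of the positive values, were raised to it (a log2 of -5.17). Probes with at least 3 values in each region were kept, 36061 of 36227. Probe names came from the platform annotation (1 symbol for 21615 probes, several for 681, none for 13931), updated by Entrez identifier with the RefSeq table of GRCm38.p6 for 21487. The probe of highest mean stood for a gene. Nduf symbols were held alone by 44 probes, and 4 more that list other genes too were not used.

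The test was that of limma 3.58.1 (R 4.3.3, eBayes with a variance trend), two-sided, with the pool as a block and Benjamini-Hochberg adjustment over all probes at 0.05. Arrays of a pool are paired because they share their animals. Over probes, the deviations of partner arrays from the means of their groups had correlations of 0.045, 0.0062, -0.033, -0.053 and -0.092, in the order of pools. Simulated data of 35714 probes with 50 changed per size returned 8%, 44%, 72% and 78% of changes of 0.5, 1, 2 and 3 log2 units, with 3 false calls. Their noise was drawn independently for each probe and array. The members and gene lists were chosen with earlier results of these data known, and list means are descriptions with no test. Values on every array are given for Ndufa9 and Ndufb3, the core subunits, the 10 members of smallest p, the 4 most positive, the 3 most variable between pools, Ndufa4l2 and the Ndufaf genes, and up to 3 genes of smallest p come from the other lists. Further genes of those lists, Ucp1, the smooth muscle, endothelial and brown fat markers, Esrra, Nrf1, Ppargc1a and Apoe, were named for their role.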

Additional observations from a re-analysis of the deposited data

Results flagged for a closer look

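Among 82 sets of 5 arrays of a region, for the 39 genes and the means of subunits and assembly factors, 14 held 1 array that stood apart from the rest by Dixon's criterion. Chance would flag about 1 set in 20, or 4. The genes share their arrays and the means repeat the genes, so these are not independent, and 4 is no fitting baseline. No count of such sets over all genes is given here, so that a trait of the array cannot be told from one of the members. In all 14 it was suprarenal array 12, the lowest of its region. The mean of the subunits read 5.53 there, against 6.13 to 6.27 on the other suprarenal arrays. Among core subunits, Ndufs1 read 3.61 (others from 4.49), Ndufv1 5.43 (others from 6.24) and Ndufs8 5.81 (others from 6.46). Among accessory subunits of the matrix arm, the array gave 3.68 for Ndufa5, 6.66 for Ndufs6, 5.13 for Ndufs4 and 6.64 for Ndufa12. Membrane arm genes read 5.49 for Ndufb2, 5.76 for Ndufb4, 5.28 for Ndufa10 and 6.55 for Ndufa3, the last with the other 4 arrays between 7.27 and 7.33. The assembly factor Ndufaf3 read 4.38 and Ndufs5-ps 4.81. Without pool 12, which holds this array, the mean difference of the subunits was -0.44, against -0.33 with it.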

How the results depend on the processing

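No Nduf gene passed the test under any of the 13 alternatives run with limma. These were averaging a gene's probes, RNA input as covariate in the blocked fit, array weights, a fit without the variance trend, no replicate block, leaving out each pool, dropping the dimmest 30% of probes, an offset of 0.2701 in place of the lower limit, and quantile normalization. Over all probes, 1 passed after quantile normalization and 0 under the others, and the cause was not tested. Between 6 and 31 members had an unadjusted p under 0.05, and 38 or 39 were lower in infrarenal aorta. Over all probes, in either direction, the count at that level ran from 1475 without pool 6 to 3931 without pool 12. The mean of the subunits ran from -0.44 to -0.19, that of the assembly factors from -0.35 to -0.16, and subunits minus assembly factors from -0.16 to -0.017, each on one side of 0 throughout. With no replicate block 39 members were lower, 15 with an unadjusted p under 0.05, the same counts as in the paired fit, and 0 passed. The difference of Ndufaf8 turned to 0.013 with the offset, and with 1 pool left out it ran from -0.48 to 0.21 (0.21 without pool 8, 0.098 without pool 11). The difference of Ndufaf5 turned to 0.18 with its probes averaged. Ndufaf8 was not among the probes left when dim ones were dropped. Without Ndufa4l2 (Ndufa4 has no probe of its own here) the mean of the subunits was -0.34. Changes of 0.5 log2 units, larger than most differences given here, were recovered in 8% of simulated probes. The simulated noise was independent between probes, while the members shared their lowest arrays, and why no member passed was not tested.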
